A study of Mus musculus with 16 samples.

Results

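The genes described here are 6 markers of atrial heart muscle, Myl7, Myl4, Sln, Bmp10, Gja5 and Dkk3, measured in samples of heart ventricle. They were found by the gene name given for each array probe, which gave 11 of the 41174 probes that are no controls. The genes were selected on these same arrays, because Myl7 was known to differ widely between arrays of one group. The levels of the 6 genes and their joint variation are therefore given as a description, with no test.

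The 16 arrays compared 129Sv mice of 2 genotypes, wild type and CHIP-/-, after sham surgery or trans-aortic banding (TAB), with 4 biological replicates in each of the 4 groups. CHIP, the product of Stub1, is a ubiquitin ligase that works with chaperones, and TAB narrows the aorta so that the left ventricle pumps against a higher pressure. Hearts were taken 1 week after surgery, the tissue is labelled heart ventricle, and the sources used here do not state the age of the mice. Total RNA of each heart (500 ng) was labelled with the dye Cy5 and hybridised against one reference RNA from whole neonatal mice of mixed 129Sv and C57BL/6 background. Each value below is a log2 ratio of heart over that reference, so one gene's level is not set against another gene's.

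Between 27.0% and 37.7% of heart spots were well above background. A slide carried the 4 arrays of a single group, and effects of slide and of group cannot be told apart. The p-values below measure the spread between these biological replicates. The Stub1 transcript lay between -1.47 and -1.17 on the CHIP-/- arrays and between -0.41 and 0.43 on the wild-type arrays, and where its probe lies relative to the disruption is not known here. Myl2, the ventricular regulatory light chain, was well above background on all 16 arrays, with log2 ratios of 4.51 to 5.58 on the 13 arrays that gave a value. On 3 sham arrays the values of Myl7 and Myl4 stood apart before any comparison, and those of Sln by less. These arrays were wild-type sham replicates 1 and 3 and CHIP-/- sham replicate 1.

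Atrial and ventricular muscle cells build the same contractile machine from partly different proteins. In adult mice, Myl7 and Myl4 encode the regulatory and essential light chains of atrial myosin, which ventricular cells replace with Myl2 and Myl3. Sln encodes sarcolipin, a small membrane protein that restrains the calcium pump of the sarcoplasmic reticulum and is far more abundant in atria than in ventricles of the mouse. Bmp10 encodes a secreted growth factor of the right atrium, Gja5 the gap junction protein connexin 40 of atrial muscle, conduction fibres and arterial endothelium, and Dkk3 a secreted protein of the Dickkopf family that is also made by other cell types. Because the samples are bulk tissue, fewer cells of a type and less RNA per cell cannot be told apart in any of these values.

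The stretches before the start sites of the light chain genes are shown because their transcripts varied together, and that of Gja5 because its transcript did not follow them. Each has 250 bases, in 5′ to 3′ direction of the gene, from RefSeq's annotation of build GRCm38.p6. They lie at chr11:5898783-5899032 on the minus strand for Myl7, at chr11:104550413-104550662 on the plus strand for Myl4 and at chr3:97032152-97032401 on the plus strand for Gja5. Capitals mark the matches to a CArG box, the sequence read by serum response factor, to a MEF2 site, to TATAAA, to the GATA motif AGATAA and to the T-box motif GGTGTGA. The E-box pattern CANNTG was searched too and is left in lower case.
Myl7: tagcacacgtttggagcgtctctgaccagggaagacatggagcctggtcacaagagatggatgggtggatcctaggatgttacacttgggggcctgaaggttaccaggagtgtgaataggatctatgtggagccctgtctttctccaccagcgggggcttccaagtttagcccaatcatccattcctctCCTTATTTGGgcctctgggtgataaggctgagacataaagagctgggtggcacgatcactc
Myl4: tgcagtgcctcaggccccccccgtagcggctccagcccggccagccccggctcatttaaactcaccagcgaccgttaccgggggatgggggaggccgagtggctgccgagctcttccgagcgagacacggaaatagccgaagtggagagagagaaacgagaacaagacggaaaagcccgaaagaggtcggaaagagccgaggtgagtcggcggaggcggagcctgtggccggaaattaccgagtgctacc
Gja5: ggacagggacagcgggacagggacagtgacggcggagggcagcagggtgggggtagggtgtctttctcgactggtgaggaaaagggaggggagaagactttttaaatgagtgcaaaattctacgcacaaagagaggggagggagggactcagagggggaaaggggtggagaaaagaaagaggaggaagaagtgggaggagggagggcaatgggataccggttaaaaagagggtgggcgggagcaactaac
Both strands were searched, with overlapping matches allowed. These 3 stretches held a CArG box in Myl7, which begins 61 bases before the start and has the letters CCTTATTTGG, a CANNTG in Myl7, which begins 168 bases before it, and no other match. A CArG box stood in 1.47% of the 32851 upstream stretches of that length, a MEF2 site in 2.92%, TATAAA in 12.4%, AGATAA in 9.99%, GGTGTGA in 3.33% and CANNTG in 66.2%. Of the members, 4 of 6 had an entry; the stretch of Bmp10 held AGATAA at 2 places. A match is a description of letters and says nothing of binding in these hearts.

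Of the 6 genes, 5 passed the filter on dim probes, which asks for a heart signal well above background on 4 or more of the 16 arrays. Myl7 (1 probe), Myl4 (2 probes), 1 of the 2 Sln probes and 1 of the 4 Gja5 probes were above it on all 16 arrays, and the Dkk3 probe on 10. The Bmp10 probe was above it on none of the 16 arrays in either channel, including the 3 arrays on which Myl7 was highest. The other Sln probe and the other 3 Gja5 probes were never above it in the heart channel. No member spot was saturated.

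Within the sham groups Myl7 had the highest SD of the 11057 features, and within the TAB groups it ranked 8. In wild-type sham its log2 ratios were 3.82, -1.69, 1.89 and -1.10 on replicates 1 to 4, and in CHIP-/- sham 2.20, -0.75, -1.55 and -1.99. In wild-type TAB they were -1.41, 0.17, -0.43 and -0.66, and in CHIP-/- TAB -1.38, -0.91, -0.23 and -0.88. The 3 highest arrays were all sham arrays, and so were the lowest 3 of the 16. The spread lay in the heart channel: the processed heart signal of Myl7 ran from 771 to 83140 over the sham arrays, 108-fold, while the reference signal differed 1.28-fold over the same arrays. Over the TAB arrays the heart signal differed 6.22-fold and the reference signal 1.47-fold.

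**Figure D1:**
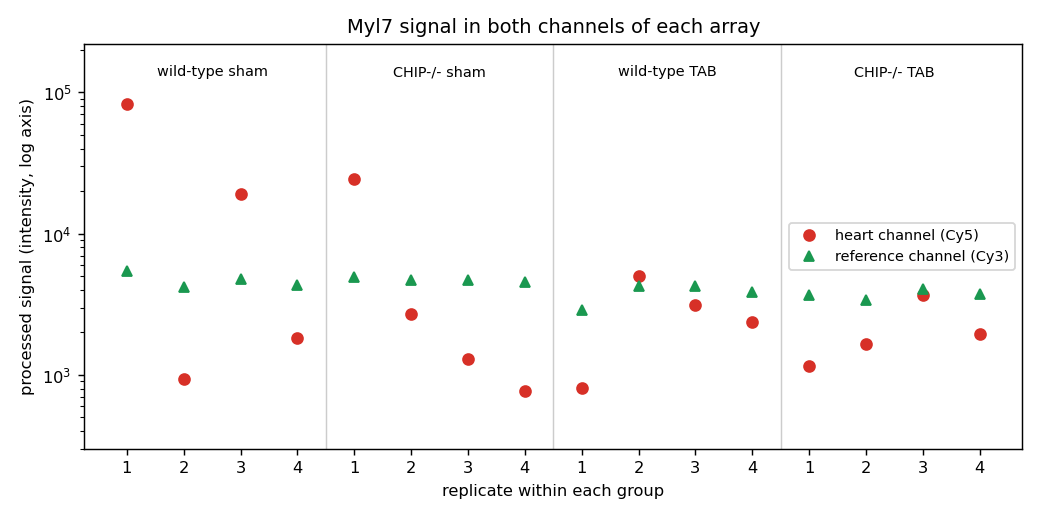
Processed signal of Myl7 (intensity, log axis) in the heart channel (circles) and the reference channel (triangles) of each of the 16 arrays, ordered by group and replicate. The heart signal runs from 771 to 83140, and the reference signal stays between 2902 and 5398.

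Myl4, the partner light chain of Myl7 in atrial myosin, was raised on the same arrays. Its brighter probe gave 0.06, -2.54, -1.44 and -2.56 in wild-type sham, -1.01, -2.53, -2.59 and -2.76 in CHIP-/- sham, -2.50, -2.31, -2.51 and -2.40 in wild-type TAB and -2.37, -2.27, -1.93 and -2.18 in CHIP-/- TAB. Wild-type sham replicate 1 was highest, followed by CHIP-/- sham replicate 1 and wild-type sham replicate 3, and the other 13 arrays lay between -2.76 and -1.93. The second probe gave 0.14, -0.81 and -1.39 on those 3 arrays and -2.60 to -1.87 on the rest. The heart signal of the brighter probe differed 9.74-fold over the sham arrays, and that of the second 9.37-fold.

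Sln was raised on these arrays too, by less. It stood at -1.43, -2.65, -2.40 and -2.84 in wild-type sham and at -2.14, -2.91, -2.74 and -2.95 in CHIP-/- sham. After TAB the 4 wild-type arrays lay between -2.61 and -2.47 and the 4 CHIP-/- arrays between -2.52 and -2.44, a span of 0.17 over all 8. The Sln value of wild-type sham replicate 3 was above all TAB arrays, but by little. The heart signal of this probe ran from 8357 to 31770, so the narrow TAB range was not that of a dim probe.

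Dkk3 varied less and was near background on many arrays. It stood at -0.52, -0.84, -0.65 and -0.61 in wild-type sham, at -0.20, -0.74, -0.70 and -0.95 in CHIP-/- sham, at -0.49, 0.03, -0.48 and -0.28 in wild-type TAB and at -0.23, -0.12, 0.21 and -0.12 in CHIP-/- TAB. Of the 8 sham arrays only the 3 that were highest in Myl7 had Dkk3 well above background, against 7 of the 8 TAB arrays. The offset of 50 added before logs were taken narrows the ratios of dim probes, and the processed heart signal of Dkk3 spanned 7.38-fold over the sham arrays where the log2 ratio spanned 0.75.

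Gja5 did not follow the light chains. The detected probe gave 0.05, 0.31, 0.11 and -0.03 in wild-type sham, 0.19, -0.20, -0.14 and 0.26 in CHIP-/- sham, 0.29, 0.21, 0.48 and 0.17 in wild-type TAB and 0.29, 0.01, 0.58 and 0.31 in CHIP-/- TAB. The highest sham arrays for Gja5 were wild-type replicate 2 and CHIP-/- replicate 4, on both of which Myl7 was the lowest of its group. Bmp10, below background throughout, gave log2 ratios of -0.09 to 0.29 with heart signals of 18.3 to 31.1, which set no level.

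**Figure D2:**
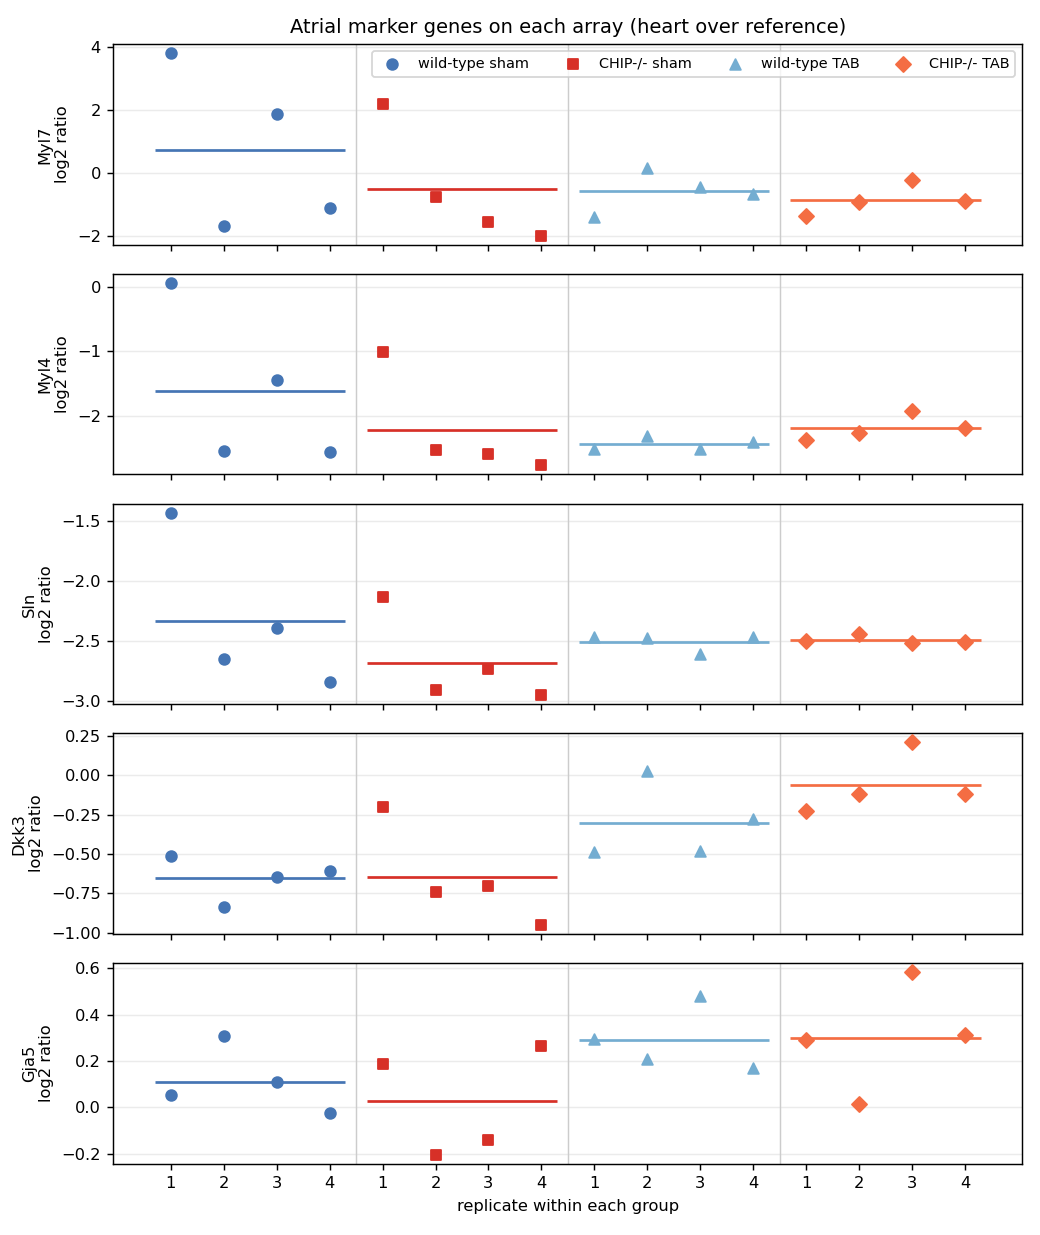
Log2 ratio of heart over reference (vertical axes, own scale per gene) of 5 genes on each array, by group and replicate, with a line at each group mean of 4 arrays. Myl7, Myl4 and Sln are highest on wild-type sham replicate 1 and next on CHIP-/- sham replicate 1, and Gja5 shows no such peak.

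The genes were next compared as deviations from their own group mean, so that group differences do not enter. Over the 8 sham arrays, Pearson's r of Myl7 was 0.98 with Myl4 (Spearman's rho 0.98), 0.91 with Sln (rho 0.90), 0.76 with Dkk3 (rho 0.67) and -0.04 with Gja5 (rho -0.19). Myl4 and Sln had r = 0.98 (rho 0.93). Without wild-type sham replicate 1 and CHIP-/- sham replicate 1, the 2 arrays farthest from the median of Myl7, r with Myl7 was 0.96 for Myl4, 0.67 for Sln, 0.40 for Dkk3 and -0.36 for Gja5. Among the other 6 sham arrays r thus stayed high for Myl4 and was lower for Sln and Dkk3. The deviations were still taken from group means that include the 2 arrays left out. Wild-type sham replicate 3, high in both light chain genes, was among the 6. These values therefore do not show whether the relation of Myl7 with Myl4 holds apart from the high arrays. All genes of an array share its RNA, labelling and normalisation, and 10 pairs of members were compared, of which 8 had a positive r over the sham arrays (median 0.70).

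Over the 8 TAB arrays the pattern was in part another. Myl7 had r = 0.78 with Myl4 (rho 0.60) and 0.85 with Dkk3 (rho 0.69). Without the 2 arrays farthest from the median of Myl7, and with the group means kept as before, these r were 0.88 and 0.76. With Sln Myl7 had r = -0.21 (rho -0.52), and with Gja5 0.26 (rho 0.31). The highest TAB arrays for Myl7, wild-type replicate 2 and CHIP-/- replicate 3, were also the highest of their groups for Dkk3 and for the brighter Myl4 probe. The second Myl4 probe was highest on wild-type TAB replicate 4, at -2.19 against -2.22 on replicate 2. Sln and Gja5 had r = -0.77 over the TAB arrays (rho -0.83), within an Sln span of 0.17. Of the 10 pairs 8 had a positive r over the TAB arrays (median 0.24).

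**Figure D3:**
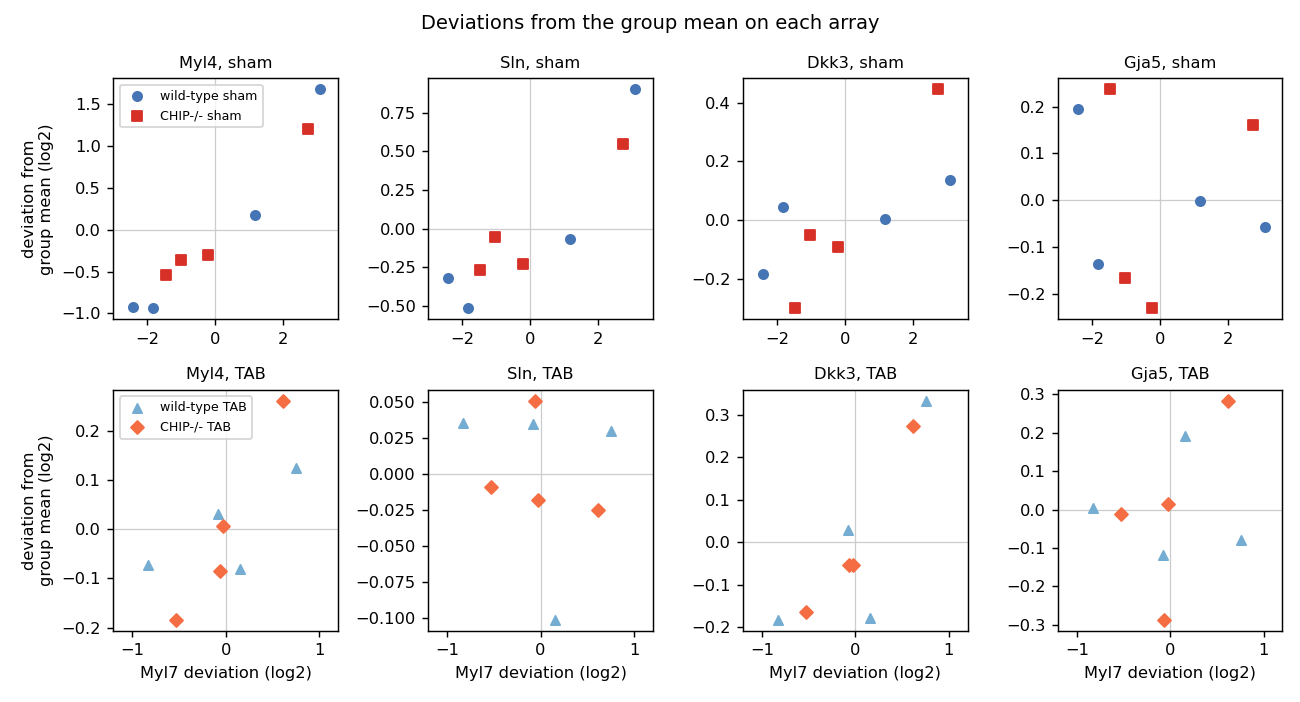
Deviation from the group mean (log2) of Myl4, Sln, Dkk3 and Gja5 (vertical axes) against that of Myl7 (horizontal axis) over the 8 sham arrays (upper row) and the 8 TAB arrays (lower row), 1 point per array, with axes scaled per panel. Myl4 rises with Myl7 in both rows (r = 0.98 and 0.78), whereas Sln does so in the upper row (r = 0.91) and not in the lower (r = -0.21).

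Set against all 11057 features by the SD within the sham groups, Myl7 ranked 1 (SD 2.26), Myl4 4 (SD 1.05) and Sln 10 (SD 0.519). Dkk3 ranked 263 (SD 0.243), Gja5 894 (SD 0.193), and the median feature had an SD of 0.112. Within the TAB groups Myl7 ranked 8 (SD 0.570), Dkk3 900, Gja5 1641, Myl4 3774 (SD 0.151) and Sln 10709 (SD 0.0538), with a median SD of 0.129. The sham SD exceeded the TAB SD 3.97-fold for Myl7, 6.94-fold for Myl4 and 9.64-fold for Sln, against 1.12-fold for Dkk3 and 1.01-fold for Gja5. These ranks describe the values on which the genes were chosen.

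The groups were then compared for each gene, as the design implies, by differences of group means with the standard error (SE) of the linear model. Myl7 averaged 0.73 ± 2.59 (SD, n = 4) in wild-type sham, -0.52 ± 1.88 in CHIP-/- sham, -0.58 ± 0.65 in wild-type TAB and -0.85 ± 0.47 in CHIP-/- TAB. Each group overlapped with its neighbour in this order. TAB minus sham was -1.31 (SE 0.93) in wild type and -0.33 (SE 0.93) in CHIP-/-, and without the 3 arrays highest in Myl7 it was 0.81 and 0.58. CHIP-/- minus wild type was -1.25 after sham, -0.03 without those arrays, and -0.27 after TAB. The direction of both TAB differences of Myl7 thus turned with those arrays, which were left out after their Myl7 values were known.

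Myl4 differed between TAB and sham by -0.81 in wild type and 0.04 in CHIP-/- (SE 0.43 each), and by 0.12 and 0.44 without the 3 arrays. For Sln these differences were -0.18 and 0.19 (SE 0.22 each), and 0.24 and 0.38 without them. CHIP-/- minus wild type after TAB was 0.25 for Myl4, 0.01 for Sln and 0.01 for Gja5. For these 3 genes the arrays of the groups compared overlapped in each of the 4 comparisons. With arrays centred on their median in place of loess, which lowers all features after TAB (median difference of all features -0.19 in wild type and -0.22 in CHIP-/-, against 0.00 and -0.01), Sln differed by -0.65 and -0.36 and Myl4 in CHIP-/- by -0.36.

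Dkk3 was the member with the largest TAB difference relative to its SE. In wild type it averaged -0.65 ± 0.14 (SD, n = 4) after sham surgery and -0.31 ± 0.24 after TAB, a difference of 0.35 (SE 0.14). In CHIP-/- the averages were -0.65 ± 0.32 and -0.06 ± 0.19, a difference of 0.59 (SE 0.14). Every wild-type TAB array lay above the 4 wild-type sham arrays, but by little (-0.49 on TAB replicate 1 against -0.52 on sham replicate 1). CHIP-/- sham replicate 1 (-0.20) overlapped with the CHIP-/- TAB arrays. In the scanner software's own log2 ratios, wild-type sham replicate 1 (-0.96) lay above wild-type TAB replicates 1 (-1.41) and 3 (-1.14). There the CHIP-/- groups did not overlap (highest sham value -0.58, lowest TAB value -0.23). Dkk3 was above background on 2 of 4 wild-type sham and 1 of 4 CHIP-/- sham arrays, so background limits the size of its differences, which were 0.96 and 2.08 with the scanner software's processed signals and 0.16 and 0.27 with median centring. Gja5 differed by 0.18 in wild type and 0.27 in CHIP-/- (SE 0.12 each), with overlap in both, and by -0.01 and 0.06 with median centring.

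Over all features, the 4 arrays of one group lay wholly above or below the 4 of the other for 31.8% in wild type with TAB, 42.6% in CHIP-/- with TAB, 5.38% between genotypes after sham and 13% after TAB. Among the 5 detected members this held for 1, 0, 0 and 0. The 1 was Dkk3 in wild type, whose groups overlapped in the scanner software's own ratios. The median member difference was -0.18, 0.19, -0.36 and 0.01 in these comparisons, and 0.00, -0.01, -0.01 and -0.01 over all features. The interaction, TAB minus sham in CHIP-/- less that in wild type, was 0.98 (SE 1.32) for Myl7, 0.85 (SE 0.60) for Myl4, 0.37 (SE 0.31) for Sln, 0.24 (SE 0.20) for Dkk3 and 0.10 (SE 0.17) for Gja5. Without the 3 arrays it was -0.23 for Myl7.

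**Figure D4:**
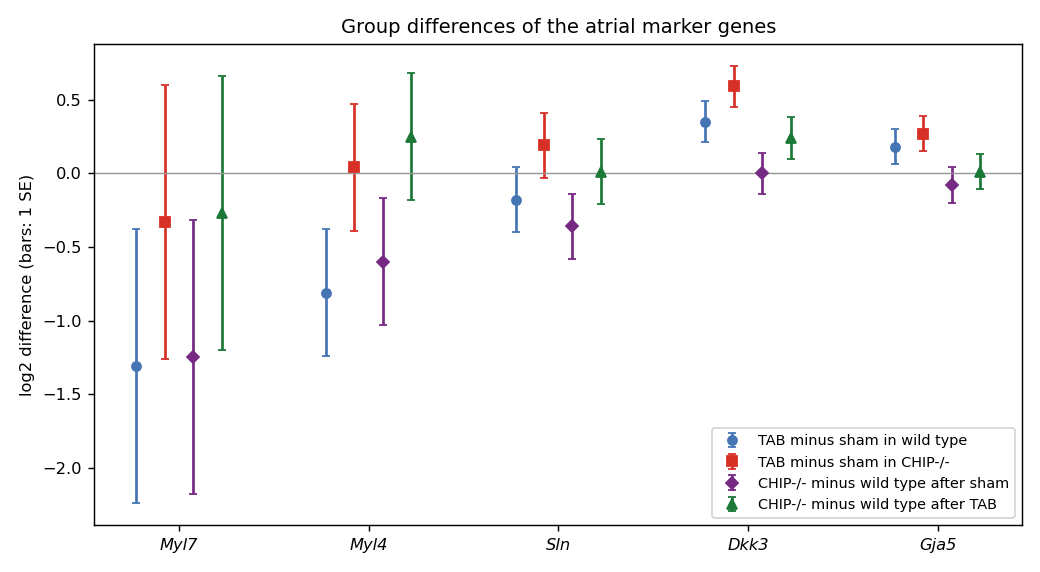
Log2 difference between group means (vertical axis, bars of 1 SE from the linear model) of 5 genes in 4 comparisons, with 4 arrays in each group. The bars of Myl7 span almost 2 log2 units, and those of Gja5 and Dkk3 are much shorter (SE 0.12 and 0.14).

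Other genes known from atrial muscle were followed on the same arrays, from a list of 20 that holds none of the 6 members. Of these, 18 were found on the array, 9 passed the filter on dim probes, and Sbk2 and Sbk3 were not analysed here. In limma's test with Benjamini-Hochberg adjustment over all features at 0.05, 2 rose and 3 fell of 9 with TAB in wild type, 3 rose and 3 fell in CHIP-/-, none differed between genotypes after sham (2 at an unadjusted p under 0.05), 1 was lower in CHIP-/- after TAB, and none passed in the interaction (2 at an unadjusted p under 0.05). Over all features, 18.2% rose and 17% fell with TAB in wild type, and 23.8% rose and 23.5% fell in CHIP-/-. Between genotypes, 0.0181% were higher and 0.00904% lower in CHIP-/- after sham, and 4.77% and 5.16% after TAB. In the interaction 1.86% were higher and 1.33% lower. With median centring 1 rose and 4 fell in wild type and 1 rose and 5 fell in CHIP-/-. The median difference of the list was 0.00 in wild type and -0.20 in CHIP-/-.

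Nppa, the atrial natriuretic peptide gene that overloaded ventricle also switches on, rose by 1.73 in wild type (SE 0.25, limma adjusted p = 4.2e-05) and by 2.87 in CHIP-/- (SE 0.25, limma adjusted p = 5e-08). On 3 of the 4 CHIP-/- TAB arrays the Nppa spot was saturated, which caps its signal, so the CHIP-/- difference is a lower bound. Its sham values did not follow Myl7 (r = -0.04 over the 8 sham arrays), and the highest sham array was wild-type replicate 4, at 5.18. Nr2f2, an atrial transcription factor gene, rose by 0.28 in wild type (limma adjusted p = 0.038), and by 0.50 in CHIP-/- (limma adjusted p = 0.00048). The wild-type call was lost with median centring (0.02) and, at a difference of 0.32, without the 3 arrays highest in Myl7 (adjusted p = 0.094). It was also lost when wild-type sham replicate 1, 2 or 4 or wild-type TAB replicate 2 or 3 was left out (differences of 0.17 to 0.28, adjusted p from 0.066 to 0.15).

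Kcnj3, which encodes a channel subunit of the acetylcholine-activated potassium current, fell by 1.02 in wild type and by 0.97 in CHIP-/- (SE 0.16 each, limma adjusted p = 8.6e-05 and 6.8e-05). After TAB it was above background on only 2 of 4 wild-type and 1 of 4 CHIP-/- arrays. Tbx5, a transcription factor gene of atria and conduction system, fell by 0.67 and 0.71 (SE 0.13 each, limma adjusted p = 0.00073 and 0.00024). Without the 3 arrays highest in Myl7 its wild-type difference was -0.42 (limma adjusted p = 0.044). Kcnk3, a background potassium channel gene, fell by 0.38 in wild type and by 0.49 in CHIP-/- (SE 0.09 each, limma adjusted p = 0.0024 and 0.00015). Kcna5, encoding a delayed rectifier channel, was lower in CHIP-/- than in wild type after TAB by 0.75 (SE 0.16, limma adjusted p = 0.0048).

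Within the sham groups, 2 of the 9 had an r with Myl7 above 0.8 and Tbx5 lay just below it, over a far smaller span. Stard10 had r = 0.91, Kcnj3 0.86 and Tbx5 0.80 over the 8 sham arrays, and their deviations spanned 0.52, 0.50 and 0.61. Over all features 2.31% had an r above 0.8. Over the TAB arrays the same r were -0.44, -0.25 and -0.02. Kcnk3 (r = -0.64) and Kcna5 (r = -0.13) did not rise with Myl7 over the sham arrays. Mybphl, an atrial myosin-binding protein gene that was too dim for the filter, was well above background on wild-type sham replicate 1 (1.38) and CHIP-/- sham replicate 1 (0.66) and on no other array, with -0.14 on wild-type sham replicate 3. A probe of Fgf12 was above background on wild-type sham replicate 1 alone. Of the 41174 probes, 3 were above background on exactly the 3 arrays highest in Myl7 and on no other. Of the 9 markers, 6 had a positive r with Myl7 over the sham arrays and 4 over the TAB arrays. Those 4 were Nr2f2 (0.65 over the TAB arrays), Pam (0.60), Kcna5 (0.56) and Nppa (0.42). None of Stard10, Kcnj3 and Tbx5 rose with Myl7 over the TAB arrays, where Kcnj3 was above background on only 2 wild-type arrays and 1 CHIP-/- array. On wild-type sham replicate 3 the deviation was 0.252 for Tbx5, -0.002 for Stard10 and -0.114 for Kcnj3. The part of atrial tissue in the samples was not tested.

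**Figure D5:**
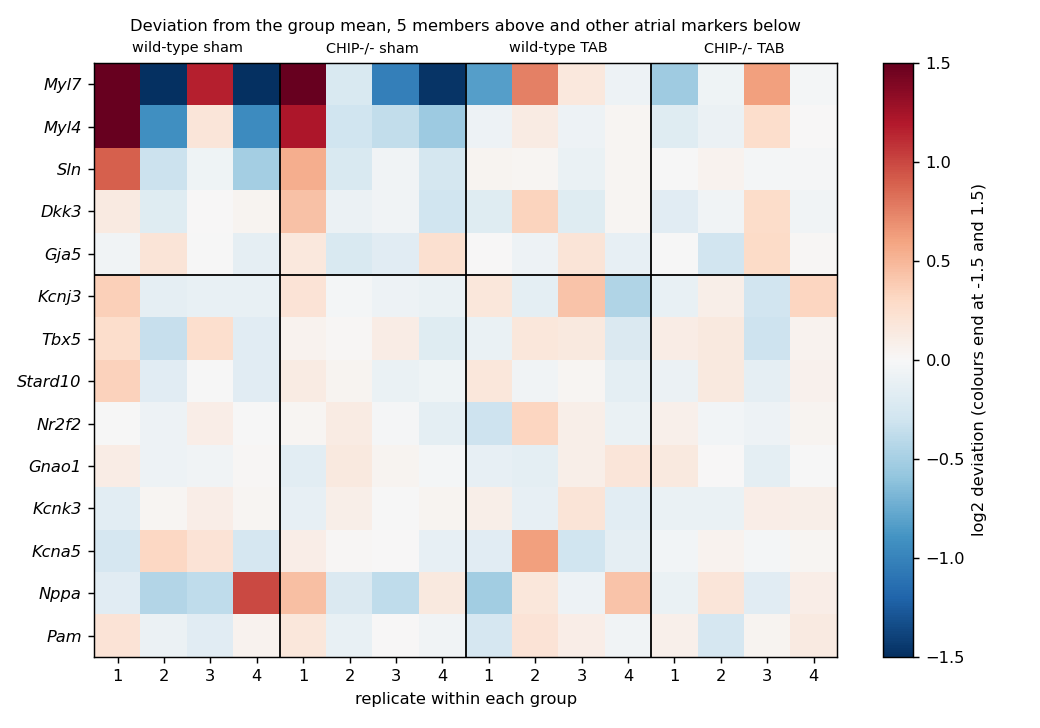
Deviation from the group mean (log2, colour, ending at -1.5 and 1.5) on each array for 5 members (above the line) and the 9 other atrial markers that passed the filter (below). Wild-type sham replicate 1 is raised for Myl7, Myl4, Sln, Kcnj3, Tbx5 and Stard10, while the largest Nppa deviation is on wild-type sham replicate 4.

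To find the genes most like Myl7, Pearson's r of deviations over the 8 sham arrays was ranked among the 42 other features whose deviations spanned at least 1 log2 unit. Myl4 (0.98) and Sln (0.91) led, followed by Retnla, a secreted protein gene of alternatively activated macrophages and fat (0.88), Rrad, a small GTPase gene (0.71), and the transcripts AK047328 (0.65) and NAP070792-1 (0.52). Xist (0.49), AK076663 (0.37), Pdk4, a kinase of glucose oxidation (0.31), and Tfrc, the transferrin receptor gene (0.28), completed the first 10. Over the 8 TAB arrays, which were not used for the ranking, r was 0.78 for Myl4, -0.21 for Sln, -0.33 for Retnla and 0.06 for Rrad. The lowest were the chaperone genes Hsph1 (-0.76), Hspa1a (-0.69) and Dnaja1 (-0.69), with Gbp6 (-0.70) and Spp1 (-0.67). Retnla stood at 0.90, 0.31 and 0.27 on the 3 arrays highest in Myl7 and at -0.20 to 0.14 on the other sham arrays. Xist, which marks female cells, stood between -3.27 and -3.20 on 3 sham arrays (replicate 4 of wild type, replicates 2 and 4 of CHIP-/-), none of which was high in Myl7, and between -0.35 and 0.16 on the 8 TAB arrays. Xist was thus low on 3 of 8 sham arrays and on 0 of 8 TAB arrays, the sex of the mice is not in the labels, and its part in the differences between TAB and sham was not tested.

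Markers of other tissues that lie near the atria were read on the same arrays as mean log2 ratios over list members with a value on every array. The sinus node list (3 of 7 genes tested) had r = 0.78 with Myl7 over the sham arrays and -0.52 over the TAB arrays. Markers of lung (2 genes in the mean) had r = -0.84 over the sham and -0.53 over the TAB arrays, those of skeletal muscle (7 genes) -0.81 and -0.67, and those of adipocytes (4 genes) -0.13 and -0.42. The sign differed between sham and TAB arrays for smooth muscle (9 genes, -0.89 and 0.67), epicardium and mesothelium (5 genes, -0.53 and 0.60) and nerve and glia (2 genes, -0.21 and 0.59). Markers of arterial endothelium and Purkinje fibres, which share Gja5 with the atria, had 0.23 and 0.42 (10 genes). None of the 9 thymus and lymphocyte genes passed the filter. The means of ventricular markers (4 genes, without Myl3 and Fhl2) spanned 2.40 to 2.44 in wild-type sham and 2.18 to 2.39 in CHIP-/- sham. Their r with Myl7 was -0.45 over the sham and 0.10 over the TAB arrays. Of the 6 tested ventricular markers, 3 had a positive r over the sham arrays, among them Myl3 (0.64). The means of the other atrial list (9 genes) spanned 1.29 to 1.47 in wild-type sham and 1.17 to 1.32 in CHIP-/- sham (r = 0.79, and 0.37 over the TAB arrays). The part of any of these tissues in the members' values was not tested.

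The relatives of the atrial light chains, which are the other light chains and the enzymes that set light chain phosphorylation, held genes that rose and genes that fell with TAB. Of 8 tested genes, 2 rose and 2 fell in wild type, 4 rose and 3 fell in CHIP-/-, and after TAB 1 was higher and 2 lower in CHIP-/- than in wild type. Of all features 18.2% rose and 17% fell in wild type, and 23.8% and 23.5% in CHIP-/-. With median centring 2 rose and 5 fell of the 8 in wild type, and 2 rose and 4 fell in CHIP-/-. Myl9, a smooth muscle regulatory light chain gene, rose by 1.00 in wild type and 2.29 in CHIP-/- (SE 0.17 each, limma adjusted p = 0.00014 and 7.8e-09). Its TAB response was larger in CHIP-/-, with an interaction of 1.29 (SE 0.24, limma adjusted p = 0.0078). Myl6, the essential light chain gene of non-muscle myosin, rose by 0.92 and 1.19. Mylk3, the cardiac light chain kinase gene, fell by 0.88 in wild type and 0.75 in CHIP-/-, and Ppp1r12b, a subunit of myosin phosphatase, by 0.57 and 0.85. Myl3, the ventricular essential light chain gene, was lower in CHIP-/- than in wild type after TAB by 0.55 (SE 0.11, limma adjusted p = 0.0042), and Myl12a by 0.43. Over the sham arrays Myl9 had r = 0.85 with Myl7.

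Of the calcium handling genes read beside sarcolipin, most that passed the filter were lower after TAB. Of 9 tested, 7 fell in wild type and 6 in CHIP-/-, and 3 were lower in CHIP-/- than in wild type after TAB, where 17%, 23.5% and 5.16% of all features did so. Hrc, a calcium-binding protein gene of the reticulum, fell by 0.98 and 1.80 (SE 0.13 and 0.14), and Pln, the phospholamban gene, by 0.86 and 1.24 (SE 0.11 and 0.12). Atp2a1, encoding the fast muscle calcium pump, fell by 0.97 and 1.10 (SE 0.10 each). The limma adjusted p of these 6 differences lay between 1.8e-08 and 1.7e-05. After TAB, Atp2a2, the cardiac pump gene, was lower in CHIP-/- by 0.36, Pln by 0.37 and Hrc by 0.82 (limma adjusted p = 0.032, 0.045 and 0.00073). Without the 3 arrays highest in Myl7, all of them sham arrays, these 3 differences had the same sizes, and the adjusted p was 0.065 for Atp2a2, 0.075 for Pln and 0.0019 for Hrc. The mean of the 6 list genes with a value on every array did not vary with Myl7 over the sham arrays (r = -0.06). That mean leaves out Atp2a2, Pln and Hrc. Of the 9 tested genes, 6 had a positive r with Myl7 there. Over the sham arrays that gave a value, Pln had r = 0.95 within a span of 0.24, Hrc had r = 0.64 and Atp2a2 had r = 0.05.

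The receptors and responders of Bmp10 were measured although Bmp10 itself was not. Of 10 tested, 4 rose with TAB in wild type and 4 in CHIP-/-, and none differed between genotypes after sham or TAB. Of all features 18.2% rose with TAB in wild type and 23.8% in CHIP-/-. Between genotypes, 0.0181% were higher and 0.00904% lower in CHIP-/- after sham, and 4.77% and 5.16% after TAB. The genes Id2 and Id3, transcriptional inhibitors that BMP signals induce, rose by 0.55 and 0.33 in wild type and by 0.52 and 0.36 in CHIP-/- (SE 0.09 each, limma adjusted p from 8.2e-05 to 0.011). Smad1, a signal transducer gene, rose by 0.43 and 0.59 (SE 0.10 each), Eng, a coreceptor gene of endothelium, by 0.28 in wild type, and the receptor gene Bmpr2 by 0.19 in CHIP-/-, a difference that turned to -0.19 with median centring. With median centring none of the 10 rose, while 2 fell in wild type and 1 in CHIP-/-.

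Among the cardiac connexins and their partners, 1 of 6 tested genes rose with TAB in each genotype. Of all features 18.2% rose in wild type and 23.8% in CHIP-/-. Gja1, encoding connexin 43 of working ventricle, fell by 0.43 in wild type (SE 0.08, limma adjusted p = 0.00043) and was higher in CHIP-/- than in wild type after TAB by 0.28 (limma adjusted p = 0.036), with an interaction of 0.49 (SE 0.11, limma adjusted p = 0.025). Gja4, encoding connexin 37 of arterial endothelium, rose by 0.29 in wild type, Gjc1, encoding connexin 45, rose by 0.43 in CHIP-/-, and Tjp1, a junction scaffold gene, was lower in CHIP-/- after TAB by 0.34. With median centring the calls of Gja4, Gjc1 and Tjp1 and both genotype calls of Gja1 were lost. Of the Dickkopf family and its Wnt coreceptors, 3 of 9 were tested and only Kremen1, a coreceptor gene, was called, lower with TAB in CHIP-/- (limma adjusted p = 0.021); its probe was not well above background on any CHIP-/- TAB array.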

How the data were processed

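A GenePix 4000B scanner read the Agilent arrays (design 014868), and spots were quantified with Feature Extraction 9.1.3.1, per the file headers. The deposited scanner files give linear intensities, mean and local background per channel, and processed intensities that were background-subtracted (method code 7) and dye-normalized, per the file headers. The deposited files also give a log10 ratio of heart over reference per spot. The deposited table of the series holds log2 ratios centred per probe, equal to those log10 ratios up to scale and centring (lowest correlation 0.9998).

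Mean intensities were corrected with normexp (offset 50) and normalized by loess with controls at weight 0, outlier spots were removed and spots of a probe averaged. Probes were kept with a heart signal well above background on 4 or more arrays and with values on at least 15, and the brightest stood for a gene (11057 features). A mean per group was fitted with limma 3.58.1 (R 4.3.3) with an intensity trend, checked on simulated data; p-values are limma's, adjusted by Benjamini-Hochberg over all features, with a threshold of 0.05. Genes were named through RefSeq GRCm38.p6 (22951 probes by accession, 6659 by symbol, 3109 by synonym, 8455 by the file's name). The members, the lists and the rule for named genes (called genes of each list, the 3 largest where over 5 were called, and those most and least like Myl7) were chosen with earlier results of these data known. Some genes of these lists are not reported here. The number of arrays limits the precision.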

Additional observations from a re-analysis of the deposited data

Results flagged for a closer look

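Of 56 sets of 4 arrays (14 atrial genes in 4 groups), 3 held an array far from the other 3, where chance flags about 1 in 20. These were CHIP-/- sham replicate 1 for Myl4 (-1.01), wild-type TAB replicate 3 for Sln (-2.61, within a span of 0.17) and wild-type sham replicate 1 for Kcnj3 (1.97). Myl7 gave no such array. By limma's adjusted p of the interaction, the response to TAB differed between genotypes for 9 genes of the lists read beside the members. Of all features, 1.86% had a positive and 1.33% a negative interaction past the threshold. The lists were chosen with earlier results of these data known, so the 9 are not weighed against these shares. The response was larger in CHIP-/- for Cnn1 (1.44), Myl9 (1.29), Des (1.15), Aldh1a2 (0.85) and Unc5b (0.62), and the interaction was also positive for Gja1 (0.49). It was negative for Hrc (-0.83), Fabp4 (-0.78) and Myh4 (-0.64). Without the 3 arrays highest in Myl7 the calls of Cnn1, Des, Fabp4 and Myl9 held, while those of Unc5b (0.70), Aldh1a2 (0.89), Gja1 (0.51), Hrc (-0.94) and Myh4 (-0.61) were lost, with limma adjusted p from 0.052 to 0.11. Of 26 alternatives, the call of Unc5b held in 8, Myh4 in 7, Hrc in 15 and Gja1 in 20. Effects of slide and of group cannot be told apart here.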

How the results depend on the processing

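Without the 3 arrays highest in Myl7, TAB minus sham in wild type turned from -1.31 to 0.81 for Myl7, from -0.81 to 0.12 for Myl4 and from -0.18 to 0.24 for Sln; that fit kept 2 wild-type and 3 CHIP-/- sham arrays, and r over sham arrays was not computed in it. With median centring, Sln with TAB stood at -0.65 and -0.36, Gja5 in CHIP-/- at 0.06 and Dkk3 in CHIP-/- at 0.27. With Feature Extraction's processed signals and likewise the series table, Dkk3 stood at 0.96 and 2.08 with TAB, at -0.35 and 0.76 between genotypes after sham and TAB and at 1.12 in the interaction. Spans over sham arrays were then 0.96 for Gja5 and 2.99 for Dkk3, with the heart channel alone 0.86 and 2.74, and 2 for Sln with median centring. The r of Myl7 over sham arrays was 0.97 with Myl4 by median centring, both signal settings and the heart channel alone, and 0.84 with Dkk3 by processed signals and the series table. Over TAB arrays it was 0.89 with Myl4 by median centring and 0.68 with the heart channel alone, which also gave 0.72 with Dkk3. Other atrial markers called after TAB between genotypes were 2 with processed signals, with the mean of a gene's probes and with the series table, against 1, and 1 to 2 when 1 array was left out.

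Leaving out 1 array at a time gave spans of 1.75 to 2.83 for Myl4, 0.82 to 1.53 for Sln (both lowest without wild-type sham replicate 1) and 0.44 to 0.75 for Dkk3 (lowest without CHIP-/- sham replicate 1). Over sham arrays r with Myl7 was 0.97 to 0.99 for Myl4, 0.88 to 0.96 for Sln and 0.66 to 0.86 for Dkk3, and that of Myl4 and Sln 0.95 to 0.99; over TAB arrays it was 0.72 to 0.88 for Myl4 and 0.74 to 0.98 for Dkk3. Of the list genes, Myh2 turned with median centring to -0.10 and -0.13 with TAB, Bmpr2 to -0.19 and Myl1 in CHIP-/- to -0.04, the last also with the mean of its probes (-0.09).

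The labels do not say whether equal replicate numbers pair the arrays. Over 24 same-numbered pairs of different groups, deviations correlated from -0.19 to 0.19 (median -0.01). Of 16 arrays, 7 lay closest to their own number, and no chance level was computed for this count. With the number as a replicate block, other atrial markers called were 5, 6, 0, 1 and 0, as without it. Each group holds 1 array of each number, so the block could not move the member differences, whether or not the arrays are paired. Over all features 3813, 5139, 2, 981 and 269 were then called, against 3900, 5238, 3, 1097 and 353. Median centring called 4307 features in wild type and 5556 in CHIP-/-, 340 and 662 of them higher, against 2017 and 2636 higher. Processed signals, the series table, median centring and no filter called 108, 92, 119 and 171 features in the interaction. In the genotype comparison after TAB median centring called 364. After sham 6 were called with median centring, 2 with the series table or no filter, 7 with Myl7 as a covariate and 9 without the 3 arrays, which in wild type with TAB left 2368 and in the interaction 196.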
